A study of Mus musculus with 68 samples.

Results

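The forkhead genes described here are Foxc1, Foxc2, Foxd1, Foxd2, Foxf1, Foxf2, Foxe1, Foxl2 and Foxi3, chosen by name as forkhead genes of pharyngeal arch mesenchyme and epithelium. All 9 had a row among the 21948 genes of the deposited table, and all 9 passed the filter on low values. RNA was sequenced from pharyngeal arch 1 (PA1), which gives rise to the jaws, and pharyngeal arch 2 (PA2), the next arch toward the tail. The 68 libraries came from 35 mouse embryos, of which 33 gave both arches. Embryos were wildtype or carried the genotype label Hoxa2-/-, whose allele the labels do not describe, and all were of the strain CBA/Ca/J x C57BL/10. Stages were E9.0 and E9.5, then E10.0 and E10.5, and in that order wildtype PA1 had 5, 5, 5 and 3 libraries and wildtype PA2 had 4, 4, 5 and 3. Each arch labelled Hoxa2-/- had 4, 5, 5 and 3. Arches were dissected whole by hand, so a library could hold mesenchyme, epithelium, mesoderm, vessels and blood. In such bulk samples, fewer cells of a type and less RNA per cell cannot be told apart.

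Forkhead proteins are transcription factors that bind DNA through a winged-helix domain. In the embryonic head, Foxc, Foxd and Foxf genes are known from mesenchyme, where Foxf1 and Foxf2 respond to Hedgehog signals sent by the epithelium. Foxe1 is known from the thyroid bud and the oral and pharyngeal epithelium, Foxi3 from early ectoderm and endoderm of the pharyngeal region, and Foxl2 from the ovary and the eyelid.

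Recovered depth was 8912251 to 20619153 reads per library, so that 3 reads were worth 0.140 to 0.328 CPM (reads scaled to the depth of the library), a floor that covers counting error only, since the cDNA was amplified by PCR. Markers of both tissues were present in every library: 8 mesenchyme markers summed to 357.3 to 1416 CPM and 8 epithelium markers to 438.8 to 1463 CPM. Hoxa2 RNA was at 16.8 to 147.4 CPM in PA2 labelled Hoxa2-/- and 20.2 to 63.3 CPM in wildtype PA2, overlapping ranges. Since the allele is not described, this RNA level cannot show the genotype, and groups are called by their label throughout. A division that no label names also ran through the libraries: Ski was at 9.52 to 15.5 CPM in E10.0 wildtype, at 9.28 to 22.8 with the label Hoxa2-/-, and at 26.3 to 108.1 in all other wildtype libraries. Outside E10.0 the label and this division cannot be told apart, while arch comparisons and changes from E9.0 to E10.5 lie within 1 side of it. The values of each of the 9 forkhead genes overlapped between the sides, each taken over both arches and several stages. Since the genes varied with arch and stage, this overlap cannot show whether the division affects them. In 9 libraries the summed markers of blood, heart or yolk sac exceeded 5 times their group's median, yolk sac and liver markers reaching 28.01 to 219.6 CPM in 6 of them, and calls lost without these 9 are given beside the results.

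On the scale of mean CPM per kilobase of exon, the leading forkhead gene changed with arch and stage. In wildtype PA1 at E9.0, Foxd2 was highest at 12.1, followed by Foxc1 at 7.74 and Foxe1 at 6.92, and Foxd1 was lowest at 0.369. In wildtype PA2 at E9.0, Foxe1 was highest at 13.8 and Foxd1 lowest at 0.235. At E10.5 Foxf1 was highest in both wildtype arches, at 23.8 in PA1 and 16.4 in PA2, and Foxi3 was lowest, at 0.276 and 0.627. Foxd1 had 3 reads or fewer in 4 libraries and Foxi3 in 2, and no member was at 0 in any library.

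Promoter sequences are shown for the pair of mesenchymal genes whose PA1 excess at E9.0 was lost, Foxc1 and Foxd2, and for a pair that rose with stage, Foxd1 and Foxf2. They run from 250 to 21 bases before the RefSeq start (GRCm38.p6), and capitals mark the GC box GGGCGG on either strand.
Foxc1 promoter, chr13:31806396-31806625, plus strand: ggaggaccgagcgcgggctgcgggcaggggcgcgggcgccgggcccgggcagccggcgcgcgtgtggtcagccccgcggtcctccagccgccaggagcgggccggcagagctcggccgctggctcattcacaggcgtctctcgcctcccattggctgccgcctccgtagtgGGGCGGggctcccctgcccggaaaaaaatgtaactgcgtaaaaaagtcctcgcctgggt
Foxd2 promoter, chr4:114908919-114909148, minus strand: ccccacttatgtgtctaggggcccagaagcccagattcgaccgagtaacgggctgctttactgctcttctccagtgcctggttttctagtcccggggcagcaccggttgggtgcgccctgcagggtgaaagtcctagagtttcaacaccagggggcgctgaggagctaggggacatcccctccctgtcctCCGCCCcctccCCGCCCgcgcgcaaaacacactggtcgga
Foxd1 promoter, chr13:98353995-98354224, plus strand: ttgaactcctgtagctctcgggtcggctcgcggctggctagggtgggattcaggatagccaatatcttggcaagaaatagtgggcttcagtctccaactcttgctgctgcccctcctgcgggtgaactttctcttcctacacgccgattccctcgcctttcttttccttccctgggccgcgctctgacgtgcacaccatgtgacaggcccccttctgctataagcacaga
Foxf2 promoter, chr13:31625566-31625795, plus strand: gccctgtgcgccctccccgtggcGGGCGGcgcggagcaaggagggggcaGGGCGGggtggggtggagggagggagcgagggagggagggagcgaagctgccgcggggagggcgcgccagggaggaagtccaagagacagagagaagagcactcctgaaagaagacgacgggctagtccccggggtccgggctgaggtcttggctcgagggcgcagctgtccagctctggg
RefSeq windows matched 6 of the 9 members, these 4 with Foxi3 and Foxl2, and the others are Foxf1, Foxc2 and Foxe1. By the annotated gene positions, the Foxl2 window (chr9:98955357-98955586) lies inside the gene, and the Foxi3 window (chr6:70956356-70956585) runs past the gene's start. The GC box was in 5 of the 6 windows, against 29.8% of 32851 windows of the same length, which were not matched for G and C content. CCAAT on either strand was in 2 of 6, Foxc1 and Foxd1, against 32.2%, and TATAA on either strand in 2 of 6, Foxd1 and Foxi3, against 21.9%. The windows of Foxd1 and Foxf2, which rose together, had none of these 3 motifs in common, and those of Foxc1 and Foxd2 had the GC box in common. G or C made up 73% of the Foxc1 window, 63% of that of Foxd2, 56.5% of that of Foxd1 and 72.2% of that of Foxf2.

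The first comparison set PA2 against PA1 within a label and stage, which asks how the arches differ. Foxd1, Foxf1 and Foxf2 were lower in PA2 wherever they passed the test, Foxe1, Foxl2, Foxi3 and Foxc2 were higher wherever they passed, Foxd2 was lower at E9.0, and Foxc1 passed in both directions at different stages. In wildtype, 5 of 9 passed at E9.0 (limma, adjusted p under 0.05), where 18.7% of all 18428 genes tested did. The count was 5 at E9.5 against 26.3% of all genes, 5 at E10.0 against 5.94%, and 1 at E10.5 against 1.52%. With the label Hoxa2-/-, 6 passed at E9.0 against 24.6%, 5 at E9.5 against 9.58%, 3 at E10.0 against 4.23%, and 2 at E10.5 against 1.37%. The median log2 difference over the 9 genes ran from -0.46 to 0.38 over these 8 comparisons, and that over all genes from -0.02 to 0.01.

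**Figure D1:**
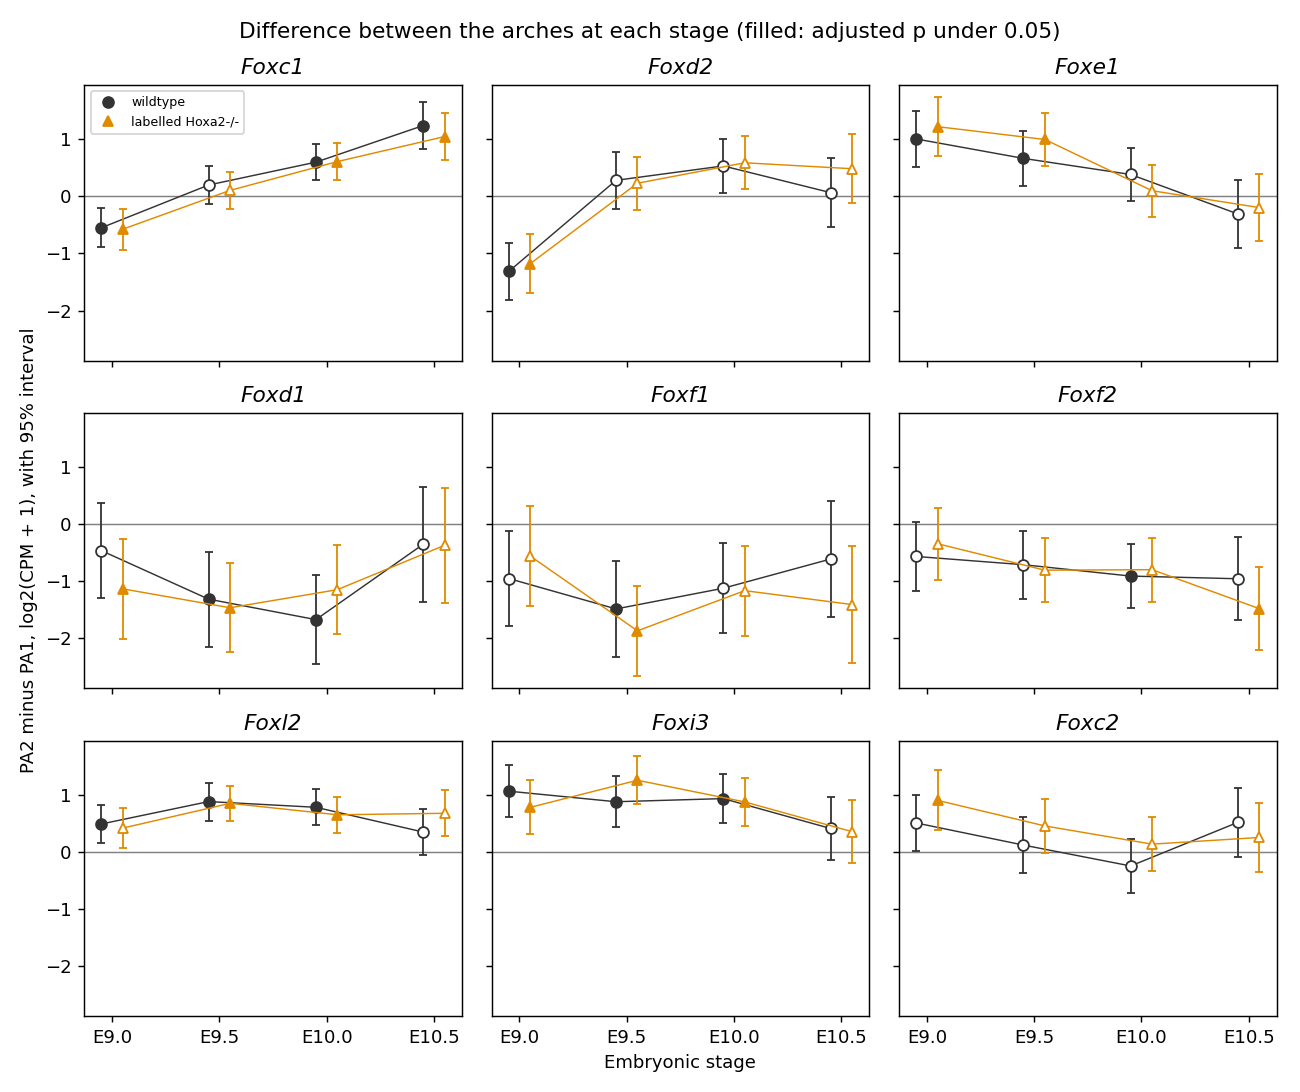
PA2 minus PA1 in log2(CPM + 1), with the 95% interval, for each forkhead gene (panels) at the 4 stages in each label. Filled points had an adjusted p under 0.05. Foxc1 goes from -0.55 at E9.0 to 1.24 at E10.5 in wildtype, and Foxd1, Foxf1 and Foxf2 lie below 0 at every stage under both labels.

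The second comparison set E10.5 against E9.0 within a label and arch. Foxd1 and Foxf1 rose and Foxl2 and Foxi3 fell in all 4 cases, Foxf2 rose in 3, Foxc1 and Foxd2 fell in PA1 under both labels, and Foxe1 fell in PA2 under both labels. In wildtype PA1, 7 of 9 passed, where 42.5% of all genes did, and in wildtype PA2 6 passed against 36.9%. With the label Hoxa2-/-, 7 passed in PA1 against 31.2% and 5 in PA2 against 30.9%. A direct test of the change of the arch difference from E9.0 to E10.5 called 3 of 9 in wildtype against 3.35% of all genes, and 3 of 9 with the label against 7.33%. Under both labels these were Foxc1, Foxd2 and Foxe1.

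Foxc1, which acts in mesenchyme of the eye, skull and heart, was lower in PA2 at E9.0, did not pass at E9.5 and was higher in PA2 from E10.0 on. The gene lies at chr13:31806633-31812476 on the plus strand (GRCm38). At E9.0 the wildtype PA1 libraries read 45.9, 45.2, 36.3, 45.0 and 53.7 CPM and the PA2 libraries 32.0, 23.7, 31.9 and 34.9. At E10.5 wildtype PA1 read 14.1, 12.3 and 16.1 CPM and PA2 read 35.5, 37.6 and 30.8. The arches did not overlap at either stage, with PA1 above at the first and PA2 above at the last.

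With the label Hoxa2-/-, Foxc1 at E9.0 read 50.9, 55.5, 47.1 and 35.1 CPM in PA1 and 31.9, 38.4, 34.1 and 21.7 in PA2, and only PA1 replicate 4 fell within the PA2 range. At E10.5 it read 20.6, 20.1 and 19.0 CPM in PA1 and 42.5, 34.5 and 51.0 in PA2, without overlap. In order of stage, the log2 differences of wildtype were -0.55 (SE 0.17, adjusted p 0.016), 0.20 (0.42), 0.60 (0.012) and 1.24 (SE 0.21, adjusted p 3.3e-05). With the label they were -0.58 (adjusted p 0.013), 0.10 (0.75), 0.61 (0.015) and 1.05 (0.00095). Among embryos with both arches, Foxc1 was lower in PA2 in 8 of 8 at E9.0 and in 4 of 9 at E9.5, and higher in PA2 in 10 of 10 at E10.0 and 6 of 6 at E10.5.

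The arch difference of Foxc1 changed by 1.79 in wildtype (SE 0.27, adjusted p 5.4e-06) and by 1.62 with the label (SE 0.27, adjusted p 7.4e-05) between E9.0 and E10.5. PA1 accounted for the larger part: mean Foxc1 fell there 3.19-fold in wildtype (log2 change -1.61, adjusted p 2.7e-10) and 2.37-fold with the label (-1.19, 2.6e-06). In PA2 its log2 change was 0.18 (adjusted p 0.48) and 0.44 (0.078). The second of these passed without E9.0 replicate 2 (0.54, adjusted p 0.037) or E10.5 replicate 2 (0.58, 0.041) of that group.

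Single libraries decided the Foxc1 calls at E9.0 and E10.0, but none at E10.5. At E9.0 in wildtype the call was lost without PA1 replicate 5 (-0.49, adjusted p 0.052) or PA2 replicate 2 (-0.44, 0.095), and with the label without PA1 replicate 2 (-0.49, 0.059) or PA2 replicate 4 (-0.41, 0.11). At E10.0 in wildtype it was lost without PA1 replicate 3 (0.53, 0.052) or PA2 replicate 1 (0.54, 0.05), and with the label without PA1 replicate 4 (0.56), PA2 replicate 2 (0.52) or PA2 replicate 3 (0.55). Wildtype PA2 replicate 2 of E9.0 had the lowest Foxc1 of its group and 73180 CPM of summed erythroid markers, against 3769 to 5509 in the others. The part of blood in its value was not tested. Without the marker-rich libraries the wildtype difference at E9.0 was -0.54 (adjusted p 0.058), and with the label the call was lost when the fit held the compared groups alone (0.11).

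Foxd2, a gene of facial mesenchyme, was lower in PA2 at E9.0 and lost that difference by E9.5. It lies at chr4:114906282-114908873 on the minus strand. At E9.0 wildtype PA1 read 29.9, 28.7, 31.1, 29.6 and 38.1 CPM and PA2 read 14.8, 9.99, 10.6 and 13.0. With the label Hoxa2-/-, PA1 read 26.2, 39.9, 30.3 and 25.2 CPM and PA2 read 11.6, 22.4, 18.6 and 4.98. Every PA1 library was above every PA2 library of its label. Arch differences of mesenchyme markers are given below, and the part of tissue makeup in that of Foxd2 was not tested.

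The log2 difference of Foxd2 at E9.0 was -1.32 in wildtype (SE 0.25, adjusted p 7e-05) and -1.18 with the label (SE 0.26, adjusted p 0.00056). At E9.5 wildtype PA1 read 14.1, 34.1, 14.5, 36.2 and 25.1 CPM and PA2 29.3, 31.9, 25.3 and 26.4, a difference of 0.28 (adjusted p 0.44). PA1 was widely spread there and enclosed the narrow PA2 range. At E10.0 the difference was 0.53 (adjusted p 0.19) in wildtype and 0.59 (0.15) with the label, and Foxd2 was higher in PA2 in 9 of 10 embryos.

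Between E9.0 and E10.5 the arch difference of Foxd2 changed by 1.38 in wildtype (SE 0.39, adjusted p 0.029) and by 1.66 with the label (SE 0.40, adjusted p 0.0064). In PA1 Foxd2 fell by 0.76 in wildtype (adjusted p 0.018) and by 0.97 with the label (0.0061) on the log2 scale. In PA2 its log2 change was 0.62 (adjusted p 0.079) and 0.70 (0.053). The latter passed with the embryo as a block (0.05), without E9.0 replicate 2 (0.95, 0.0078) and without E9.0 replicate 3 (0.87, 0.022) of that group.

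In wildtype the change of the Foxd2 arch difference did not pass without PA1 replicate 5 (1.31), PA2 replicate 2 (1.3) or PA2 replicate 4 (1.33) of E9.0, or without PA1 replicate 1 (1.35), PA1 replicate 3 (1.33) or PA2 replicate 2 (1.22) of E10.5, nor without the marker-rich libraries (1.33, adjusted p 0.062). With the label it did not pass when the fit held the compared groups alone (adjusted p 0.11), nor did the difference at E9.0 (0.091). The fall in PA1 did not pass without wildtype replicate 1 (-0.73) or 3 (-0.72) of E10.5, or without replicate 3 labelled Hoxa2-/- of E10.5 (-0.73).

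Foxd2os, a transcript that starts 383 bases from Foxd2 on the other strand, was also lower in PA2 at E9.0. In wildtype it was at 30.7 ± 4.18 CPM (SD, n = 5) in PA1 and 14.1 ± 1.64 (n = 4) in PA2 at E9.0, a log2 difference of -1.07 (limma, adjusted p 3.9e-08). At E10.5 it was at 15.6 ± 0.766 CPM in PA1 and 21.6 ± 0.900 in PA2 (n = 3 each). Its arch difference changed by 1.52 in wildtype (adjusted p 2.5e-06) and by 1.61 with the label (1.7e-06). Over the 16 group means of log2(CPM + 1), Foxd2 and Foxd2os had a Pearson r of 0.892, a description over groups that share embryos and stages. The annotated genes do not overlap, and whether reads were counted by strand is not given in the sources used here.

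**Figure D2:**
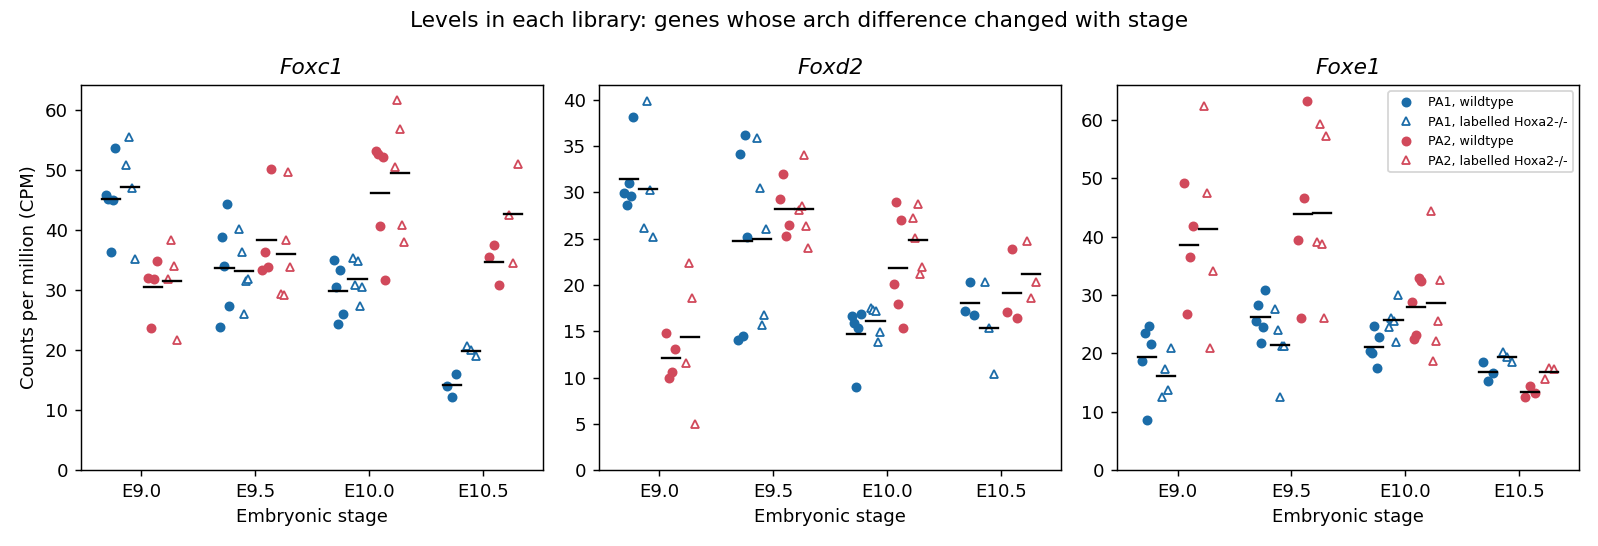
CPM of Foxc1, Foxd2 and Foxe1 in each of the 68 libraries by stage, with PA1 in blue, PA2 in red, wildtype as filled circles, the label Hoxa2-/- as open triangles and group means as black bars. At E9.0 Foxc1 and Foxd2 are higher in PA1 and Foxe1 is higher in PA2. At E10.5 Foxc1 lies between 12.3 and 20.6 CPM in PA1 and between 30.8 and 51.0 in PA2.

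Foxc2, the close relative of Foxc1 known from vessels, lymphatics and skeleton, passed the arch test once. It passed the stage test in no case by the limma fit to all 68 libraries. With the label Hoxa2-/- at E9.0, PA1 read 6.72, 5.63, 6.17 and 3.72 CPM and PA2 14.7, 9.94, 9.65 and 10.6, without overlap (log2 difference 0.90, SE 0.26, adjusted p 0.0079). In wildtype at E9.0, PA1 read 7.84, 8.73, 6.66, 6.69 and 7.41 CPM and PA2 16.1, 6.41, 12.5 and 11.1 (0.51, adjusted p 0.15). PA2 replicate 2, the library rich in erythroid markers, was the 1 PA2 library below the PA1 range.

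At E9.5 to E10.5 the log2 difference of Foxc2 ran from -0.25 to 0.52 in wildtype and from 0.14 to 0.46 with the label. It was higher in PA2 in 24 of 33 embryos. Its log2 change from E9.0 to E10.5 was 0.61 (adjusted p 0.061) and 0.62 (0.076) in wildtype PA1 and PA2, and 0.63 (0.082) and -0.02 (0.97) with the label.

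Foxd1, known from kidney stroma and facial mesenchyme, had the largest rise by ratio of means among the 9 genes in wildtype. It lies at chr13:98354242-98359305 on the plus strand. Wildtype PA1 read 1.20, 2.44, 1.38, 0.690 and 3.63 CPM at E9.0 and 22.3, 21.1 and 21.9 at E10.5. Wildtype PA2 read 0.927, 0.428, 0.276 and 3.14 CPM at E9.0 and 16.3, 19.9 and 14.7 at E10.5. The stages did not overlap in either arch.

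The ratio of mean Foxd1, E10.5 over E9.0, was 11.7 in wildtype PA1 and 14.2 in wildtype PA2, and 9.15 and 36.7 with the label Hoxa2-/-. The wildtype PA2 ratio was 31.3 without replicate 5 of E9.0, which read 3.14 CPM. The last ratio rests on an E9.0 group in which 2 of 4 libraries had 3 reads or fewer. On the log2(CPM + 1) scale, which understates changes of low genes, the rises were 3.08 (SE 0.45, adjusted p 1.2e-07), 3.19 (SE 0.47, 2e-07), 2.55 (SE 0.47, 2.4e-05) and 3.31 (SE 0.47, 1.3e-07).

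Between the arches, Foxd1 was lower in PA2 in 32 of 33 embryos. At E10.0 wildtype PA1 read 25.7, 12.3, 8.80, 16.9 and 12 CPM and PA2 7.92, 2.39, 3.06, 4.37 and 2.74, without overlap (log2 difference -1.67, SE 0.39, adjusted p 0.0029). With the label, PA1 read 17.7, 17.1, 11.3, 11.1 and 12.5 CPM and PA2 4.63, 12.5, 5.59, 3.68 and 4.48 (-1.15, adjusted p 0.08, and 0.018 with the embryo as a block). PA2 replicate 2 of that group alone reached the PA1 range.

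Foxd1 was also lower in PA2 at E9.5 in wildtype (-1.31, adjusted p 0.015) and with the label (-1.46, 0.0094), and at E9.0 with the label (-1.13, 0.049). These were its least stable calls. That at E9.0 was lost without any 1 of its 8 libraries (-1.22 to -1.04), by edgeR's quasi-likelihood test (adjusted p 0.054), with a pseudocount of 5 (-0.38, 0.28), with no filter (0.055), with median-of-ratios scaling (0.051), with the sex covariate (0.051) and without the marker-rich libraries (-1.18, 0.075). That of wildtype at E9.5 was lost without PA1 replicate 5 (-1.03), PA2 replicate 2 (-0.97) or PA2 replicate 3 (-1.14), by edgeR (0.063), with a pseudocount of 5 (-0.58, 0.056) and without the marker-rich libraries (-1.18, 0.085), and that with the label without PA1 replicate 4 (-1.19) or PA2 replicate 2 (-1.23 and adjusted p 0.055). Both calls at E9.5 were lost when the fit held the compared groups alone (adjusted p 0.092 in each).

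Foxf1, a Hedgehog target needed in mesenchyme around the gut, rose in all 4 cases. It lies at chr8:121084386-121088144 on the plus strand. Wildtype PA1 read 6.32, 5.20, 4.31, 13.0 and 6.04 CPM at E9.0 and 53.9, 59.0 and 59.6 at E10.5. Wildtype PA2 read 5.10, 1.07, 2.92 and 3.57 CPM at E9.0 and 29.3, 59.5 and 29.6 at E10.5. All E10.5 libraries were above all E9.0 libraries, and PA2 replicate 2 of E10.5 reached the PA1 range.

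The log2 rise of Foxf1 was 2.96 in wildtype PA1 (SE 0.45, adjusted p 3.3e-07), 3.3 in wildtype PA2 (SE 0.48, 1.1e-07), 3.5 in PA1 with the label (5.9e-08) and 2.65 in PA2 with the label (1.4e-05). The ratios of means were 8.24, 12.5, 11.9 and 8. At E9.5 wildtype PA1 read 18, 21.8, 5.4, 15.4 and 34.8 CPM and PA2 3.78, 2.56, 3.5 and 18.8. With the label at E9.5, PA1 read 18.3, 15.7, 36.1, 46.2 and 25.5 CPM and PA2 1.93, 4.82, 6.46, 14.7 and 10.7. In both labels the highest PA2 value came from the embryo with the highest PA1 value, wildtype embryo 5 and embryo 4 labelled Hoxa2-/-. These embryos also had the highest Foxd1 of their groups, at 11.2 CPM in PA1 and 5.60 in PA2 for the first and 11.4 and 4.45 for the second.

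The arch difference of Foxf1 at E9.5 was -1.48 in wildtype (SE 0.42, adjusted p 0.0065) and -1.87 with the label (SE 0.39, 0.00065), and Foxf1 was lower in PA2 in 32 of 33 embryos. The wildtype call was lost when the fit held the compared groups alone (adjusted p 0.075). With the embryo as a block the differences also passed at E9.0 in wildtype (-0.98, adjusted p 0.038, against 0.1 without it), at E10.0 in wildtype (-1.12, 0.021 against 0.08) and at E10.0 with the label (-1.16, 0.02 against 0.077).

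**Figure D3:**
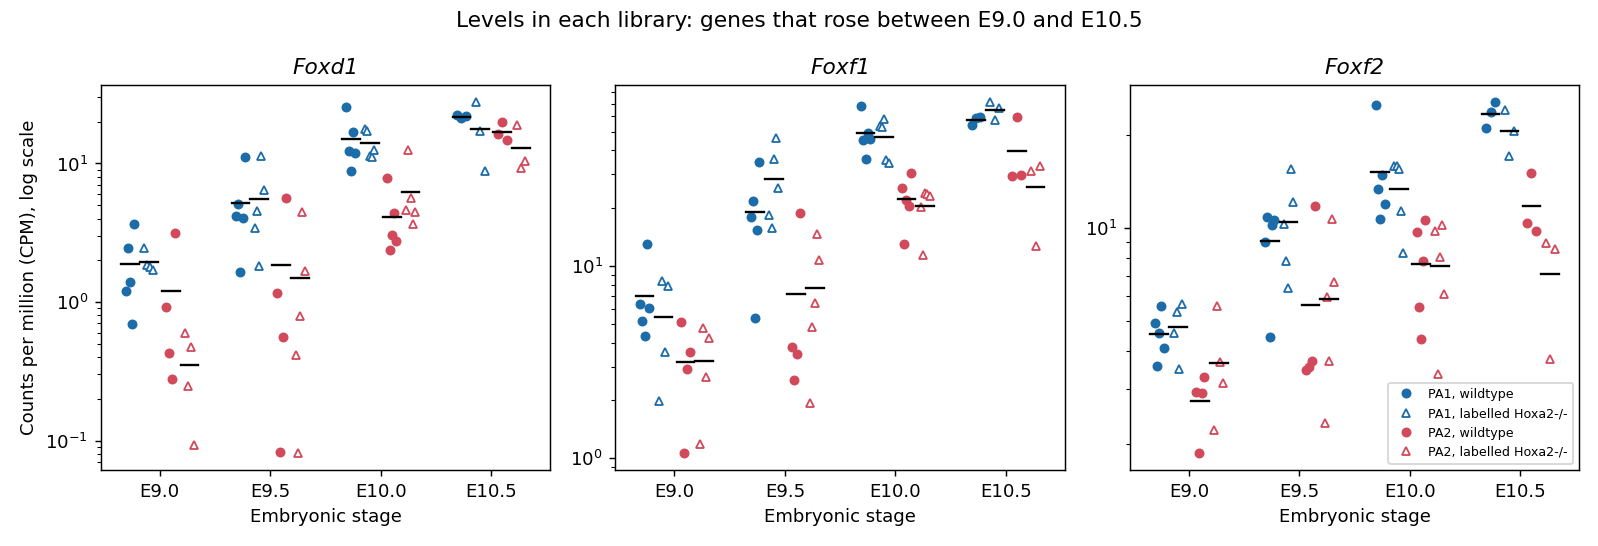
CPM on a log axis of Foxd1, Foxf1 and Foxf2 in each library by stage, with PA1 in blue, PA2 in red, wildtype as filled circles, the label Hoxa2-/- as open triangles and group means as black bars. Group means are higher at E10.5 than at E9.0 in every arch and label, a change that did not pass for Foxf2 in PA2 labelled Hoxa2-/-, and they lie lower in PA2 than in PA1 at every stage. Among PA2 libraries at E9.5, the highest Foxf1 was 18.8 CPM in wildtype and 14.7 with the label. The highest PA1 values there were 34.8 and 46.2 CPM.

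Foxf2, which is required for the palate, rose in 3 of 4 cases. It lies at chr13:31625816-31631403 on the plus strand. Wildtype PA1 read 4.91, 3.58, 4.56, 5.59 and 4.07 CPM at E9.0 and 21.1, 23.7 and 25.5 at E10.5 (log2 change 2.15, SE 0.32, adjusted p 2.3e-07). Wildtype PA2 read 2.94, 1.87, 2.92 and 3.3 CPM at E9.0 and 10.4, 15.1 and 9.76 at E10.5 (1.76, SE 0.34, adjusted p 3.4e-05). The stages did not overlap in either arch.

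In PA1 labelled Hoxa2-/- Foxf2 rose by 1.90 (adjusted p 1.3e-05). In PA2 with the label it read 2.22, 5.59, 3.69 and 3.14 CPM at E9.0 and 8.92, 3.76 and 8.55 at E10.5, a log2 change of 0.77 (adjusted p 0.077). Replicate 2 of E10.5 lay within the E9.0 range, and without it the change was 1.11 (adjusted p 0.022). Without replicate 2 of E9.0 it was 0.95 (0.036). The arch difference of Foxf2 with the label changed by -1.14 from E9.0 to E10.5 (adjusted p 0.13).

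Between the arches, Foxf2 was lower in PA2 in 30 of 33 embryos. At E10.0 wildtype PA1 read 25, 13.4, 10.7, 14.9 and 12 CPM and PA2 9.69, 5.55, 4.37, 7.84 and 10.6, without overlap (log2 difference -0.91, adjusted p 0.038). At E10.5 with the label, PA1 read 24.1, 17.0 and 20.6 CPM and PA2 8.92, 3.76 and 8.55, without overlap (-1.48, adjusted p 0.016). The first call was lost by edgeR (adjusted p 0.06), without the marker-rich libraries (-0.75, 0.12) and without PA1 replicate 1, 2 or 4 or PA2 replicate 2, 3 or 4 (-0.94 to -0.72). The second was lost without PA1 replicate 1 (-1.36), PA1 replicate 3 (-1.47) or PA2 replicate 2 (-1.14). With the embryo as a block, Foxf2 also passed at E9.5 in wildtype (-0.70, adjusted p 0.033) and with the label (-0.81, 0.017), and at E10.0 with the label (-0.80, 0.029).

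Over the 16 group means Foxf1 had an r of 0.949 with Foxf2 and 0.957 with Foxd1. The r of Foxf1 was 0.948 with Gli1, a target and effector of Hedgehog signalling, and 0.317 with Ptch1, a receptor and target. It was similarly high outside this pathway, at 0.932 with the mesenchyme gene Prrx1 and 0.893 with macrophage markers. Within groups, over 68 libraries, the r of Foxf1 was 0.680 with Gli1, 0.503 with Ptch1, 0.429 with Prrx1 and 0.278 with macrophage markers. Gli1 rose from 6.07 to 13.8 CPM in wildtype PA1 (log2 change 1.07, adjusted p 0.00053) and from 5.12 to 11.2 in wildtype PA2 (0.99, 0.0024), and with the label by 0.92 in PA1 (0.0062) and 1.21 in PA2 (0.00031). Gas1, a Hedgehog co-receptor, rose in all 4 cases too, by 1.80 in wildtype PA2 (1.4e-14). Shh, the ligand, rose in wildtype PA1 from 1.15 to 3.64 CPM (1.10, adjusted p 6.6e-05).

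Of the 12 Hedgehog pathway genes listed, 3 rose and 4 fell in wildtype PA1, where 42.5% of all genes passed. In wildtype PA2 3 rose and 0 fell (36.9% of all genes). With the label, 3 rose and 4 fell in PA1 (31.2%), and 2 rose and 0 fell in PA2 (30.9%). The median log2 change of the list was 0.13, 0.20, 0.05 and 0.26 in these 4 cases, and that of all genes lay between -0.02 and 0.01. Sufu, an inhibitor of the pathway, fell in wildtype PA1 by 0.71 (adjusted p 2.1e-05), and Boc, a co-receptor, fell there by 0.72 (0.00073). The receptor and target Ptch1 had a log2 change of 0.30 in wildtype PA1 (adjusted p 0.18).

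Of the neighbours of Foxf1 on chromosome 8, Fendrr and Foxl1 rose in wildtype, Foxc2 did not pass, as given above, and Mthfsd, 3483 bases away, had a log2 change of 0.01 in wildtype PA1 (adjusted p 0.95) and -0.12 in wildtype PA2 (0.22). Fendrr, a long noncoding RNA that starts 1275 bases away on the other strand, rose from 0.631 to 5.61 CPM in wildtype PA1 (log2 change 2.01, adjusted p 1.6e-09) and from 0.229 to 3.19 in wildtype PA2 (1.60, 1.4e-06). Over the group means Fendrr had an r of 0.922 with Foxf1 and 0.974 with Foxf2, and was among the 3 genes most like Foxf2. Foxl1, a forkhead gene 39795 bases from Foxf1, rose from 0.241 to 2.87 CPM in wildtype PA1 (1.64, 5e-10). Foxf1 and Foxc2 both lie within the annotated gene Gm20388, and the sharing of reads with it was not tested.

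Mesenchyme markers moved in both directions while Foxd1, Foxf1 and Foxf2 rose. From E9.0 to E10.5, 4 of 8 rose and 1 fell in wildtype PA1, where 42.5% of all genes passed. In wildtype PA2 3 rose and 2 fell (36.9% of all genes). The 8 markers, all detected in the table, summed to a median of 666.9 CPM in wildtype PA1 and 386.5 in PA2 at E9.0, and to 778.7 and 678.1 at E10.5. Prrx1, a mesenchyme regulator, was at 97.5 and 38.9 CPM at E9.0 and at 219.9 and 130.2 at E10.5. Its relative Prrx2 fell, by 0.51 in wildtype PA1 (adjusted p 0.00061) and by 1.21 in wildtype PA2 (4.8e-11), and Alx1, a regulator of frontonasal mesenchyme, rose by 1.61 in PA1 (0.00014) and fell by 1.19 in PA2 (0.0078). Between the arches at E9.0 in wildtype, 0 markers were higher and 5 lower in PA2, where 18.7% of all genes passed. In order of stage, their median log2 difference was -0.847, -0.178, -0.415 and -0.379 in wildtype. With the label it was -0.659, -0.134, -0.032 and -0.203. The part of tissue makeup in the rise and in the arch difference was not tested, nor its part in the lost PA1 excess of Foxc1 and Foxd2.

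Foxe1, a regulator of the thyroid bud and the oral epithelium, was higher in PA2 at E9.0 and E9.5 and fell in PA2 by E10.5. It lies at chr4:46343609-46346412 on the plus strand, and the antisense gene Gm12446 overlaps it by 1907 bases at 0.916 to 5.79 CPM, so the split of reads between them is uncertain. Wildtype PA1 at E9.0 read 18.7, 23.5, 8.61, 24.6 and 21.6 CPM and PA2 49.2, 26.8, 36.6 and 41.8. At E10.5 wildtype PA1 read 18.6, 15.2 and 16.7 CPM and PA2 12.5, 14.4 and 13.2. The arches did not overlap at either stage, with PA2 above at E9.0 and below at E10.5.

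In order of stage, the log2 difference of Foxe1 in wildtype was 1.00 (SE 0.24, adjusted p 0.0019), 0.66 (0.036), 0.38 (0.38) and -0.31 (95% interval -0.90 to 0.28, adjusted p 1). With the label it was 1.22 (SE 0.26, adjusted p 0.00029), 0.99 (0.0019), 0.10 (0.89) and -0.20 (0.9). Foxe1 was higher in PA2 in 8 of 8 embryos at E9.0, 8 of 9 at E9.5, 7 of 10 at E10.0 and 0 of 6 at E10.5. In PA2 it fell by 1.43 in wildtype (adjusted p 3.2e-05) and by 1.14 with the label (0.00091). In PA1 its log2 change was -0.12 (0.75) and 0.27 (0.49).

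The arch difference of Foxe1 changed by -1.31 in wildtype (SE 0.38, adjusted p 0.036) and by -1.42 with the label (SE 0.39, 0.018). In wildtype this was lost without PA1 replicate 3 or PA2 replicate 1, 4 or 5 of E9.0 or any 1 of the 6 libraries of E10.5 (-1.38 to -1.06), and with the label without PA1 replicate 1 of E10.5 (-1.39) or when the fit held the compared groups alone (adjusted p 0.074). The wildtype call at E9.5 was lost without PA1 replicate 1, 3 or 4 or PA2 replicate 3 or 5 (0.47 to 0.66). PA1 replicate 4 and PA2 replicate 3 of that stage were high in heart muscle markers, at 187.3 and 905.6 CPM, and without both the difference was 0.59 (adjusted p 0.073).

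Markers of pharyngeal endoderm and thyroid were higher in wildtype PA2 than PA1 at E9.0 in 5 of 8 cases, with 0 lower. Of all genes, 18.7% passed there. All 8 had a row, and they summed to 44.2 to 68.7 CPM in wildtype PA1 and 106.8 to 176.2 in PA2 at E9.0, and to 21.5 to 22.5 and 15.2 to 21.3 at E10.5. The sum thus also fell in PA1, where Foxe1 did not pass. By stage, 5 of 8 markers were lower there (42.5% of all genes passed) and 7 of 8 in PA2 (36.9%), with 0 higher. With the label Hoxa2-/- at E10.5 the median sum was 23.2 CPM in PA1 and 29.1 in PA2, while Foxe1 averaged 19.4 CPM in PA1 and 16.8 in PA2 (adjusted p 0.9). Pax8, a thyroid regulator, was at 37.2 CPM in wildtype PA2 and 1.64 in PA1 at E9.0, and at 0.232 and 0.0523 at E10.5, where it was at 0 in 1 PA1 library. At E9.0 heart muscle markers summed to 32.6 to 1129 CPM in wildtype PA2, with a median of 1036, and to 13.8 to 35.2 in PA1, with a median of 23.2. Foxe1 had an r of 0.824 with the pharyngeal endoderm and thyroid markers over the group means, and of 0.757 within groups over 68 libraries. With the heart muscle markers the r of Foxe1 was 0.800 over the group means and 0.504 within groups. The part of included endoderm, thyroid or heart tissue in the Foxe1 difference was not tested.

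Foxi3, a regulator of the ectoderm and endoderm that the arches need, was higher in PA2 and fell in all 4 stage comparisons. It lies at chr6:70956531-70961066 on the plus strand. Wildtype PA1 at E9.0 read 2.09, 2.28, 2.00, 1.17 and 2.55 CPM and PA2 4.12, 6.15, 6.57 and 4.44. At E10.5 wildtype PA1 read 0.327, 0.475 and 0.260 CPM and PA2 0.621, 0.790 and 0.998. PA2 was above PA1 at both stages and E9.0 above E10.5 in both arches, without overlap.

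The ratio of mean Foxi3, E9.0 over E10.5, was 5.70 in wildtype PA1, 6.62 in wildtype PA2, 5.67 in PA1 with the label and 6.37 in PA2 with the label. The log2 changes were -1.14 (SE 0.24, adjusted p 0.00012), -1.79 (SE 0.26, 9e-08), -1.32 (5.2e-05) and -1.74 (2.5e-07). Between the arches the log2 differences in wildtype, in order of stage, were 1.06 (adjusted p 0.00038), 0.88 (0.0029), 0.93 (0.002) and 0.41 (0.97). With the label they were 0.78 (0.011), 1.26 (1.7e-05), 0.88 (0.0061) and 0.36 (0.72). PA2 was the higher arch in 32 of 33 embryos, 6 of 6 at E10.5 included. The ratios of mean CPM, PA2 over PA1, were 2.63, 2.36, 4.02 and 2.27 in wildtype and 2.12, 3.74, 2.98 and 1.89 with the label. At these low levels the pseudocount sets the log2 value: at E10.0 in wildtype it ran from 0.33 to 2.02 over the alternatives, all of which kept the call. At E9.0 with the label, PA2 read 5.62, 4.60, 3.03 and 9.41 CPM, and without the last of these, replicate 4, the difference was 0.54 (adjusted p 0.11). The call was also lost when the fit held the compared groups alone (0.11).

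Foxi2, a related forkhead gene of early head ectoderm, was higher in PA2 in all 8 comparisons and fell in all 4 stage comparisons. In wildtype it was at 47.5 CPM in PA1 and 103.3 in PA2 at E9.0 (log2 difference 1.09, adjusted p 0.0058), and at 4.38 and 14.4 at E10.5 (1.54, 0.0082). The summed epithelium markers fell with stage as well, from a median of 959.7 to 601.6 CPM in wildtype PA1 and from 1098 to 487.7 in PA2. Of the 8 markers, 1 rose and 6 fell in each wildtype arch, where 42.5% of all genes passed in PA1 and 36.9% in PA2. With the label, 1 rose and 7 fell in PA1 (31.2% of all genes), and 1 rose and 6 fell in PA2 (30.9%). Over the 16 group means Foxi3 had an r of 0.787 with the epithelium markers, 0.959 with the pharyngeal endoderm and thyroid markers, 0.963 with the heart muscle markers, 0.962 with the branchiomeric mesoderm markers and 0.852 with the endothelium markers. Within groups, over 68 libraries, these were lower, at 0.300, 0.277, 0.161, 0.316 and 0.372 in the same order. The part of epithelial content in the fall of Foxi3 was not tested.

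Foxl2 was higher in PA2 in 33 of 33 embryos. It lies at chr9:98955288-98958543 on the plus strand. At E9.5 wildtype PA1 read 3.27, 4.68, 4.03, 5.85 and 5.29 CPM and PA2 10.7, 8.77, 7.87 and 9.75 (log2 difference 0.88, SE 0.17, adjusted p 8.4e-05). With the label, PA1 read 3.96, 4.82, 3.31, 3.26 and 5.30 CPM and PA2 8.83, 7.84, 7.26, 9.13 and 7.78 (0.85, SE 0.16, adjusted p 7.6e-05). No PA1 library reached a PA2 library of its label.

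At E10.0 the difference of Foxl2 was 0.78 in wildtype (adjusted p 0.00033) and 0.65 with the label (0.0055). At E9.0 it was 0.49 in wildtype (0.029) and 0.42 with the label (0.071, and 0.032 with the embryo as a block), and at E10.5 it was 0.35 (0.85) and 0.68 (0.084, and 0.021 with the block). The wildtype call at E9.0 was lost without PA1 replicate 3 or 4 or PA2 replicate 1 or 2, the lowest value being 0.35 without PA1 replicate 3, and when the fit held the compared groups alone (adjusted p 0.1). Without the libraries of high yolk sac or erythroid markers, PA1 replicates 3 and 4 and PA2 replicate 2, it was 0.20 (adjusted p 0.52).

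From E9.0 to E10.5 Foxl2 fell by 0.87 and 1.01 in wildtype PA1 and PA2 (adjusted p 7.4e-05 and 1.9e-05), and by 0.89 and 0.63 with the label (0.0002 and 0.008). The last of these did not pass without PA2 replicate 3 of E10.5 (-0.50, adjusted p 0.074) or when the fit held the compared groups alone (0.057). Foxl2os, an antisense transcript that overlaps Foxl2 by 12 bases, was higher in PA2 as well, at 17.1 ± 1.44 CPM (n = 4) against 7.08 ± 2.09 (n = 5) in wildtype at E9.5 (limma, log2 difference 1.20, adjusted p 9.8e-07). Unlike Foxl2, Foxl2os passed the stage test in 1 of 4 cases, PA1 with the label (-0.61, adjusted p 0.015). Over the group means their r was 0.826.

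**Figure D4:**
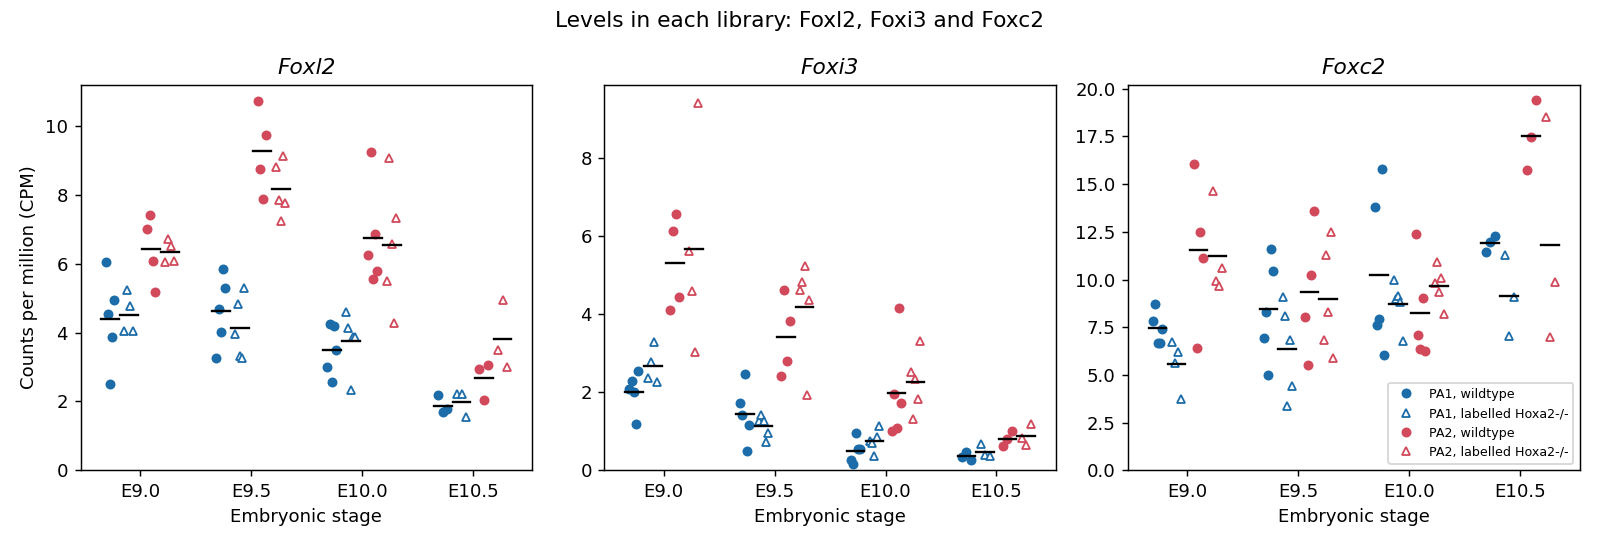
CPM of Foxl2, Foxi3 and Foxc2 in each library by stage, with PA1 in blue, PA2 in red, wildtype as filled circles, the label Hoxa2-/- as open triangles and group means as black bars. Group means of Foxl2 and Foxi3 are higher in PA2 at every stage and are lowest at E10.5, where Foxi3 reaches 1.19 CPM at most. Foxc2 shows overlapping arches at most stages.

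A list of 12 epithelial signals and partners showed arch differences in both directions. In wildtype, 7 were higher and 3 lower in PA2 at each stage up to E10.0, and 3 were higher and 3 lower at E10.5. Pax1, a gene of the pharyngeal pouches, was at 71.5 CPM in PA2 and 15.3 in PA1 at E9.0 (log2 difference 2.17, adjusted p 1.4e-08), and Tbx1, which patterns the pharynx, at 48.5 and 26.8 (0.84, 0.014). Fgf8, an epithelial growth factor, passed in both directions, at 0.62 at E9.0 (adjusted p 0.022) and -1.88 at E10.5 (9.8e-08). Over the list the median difference was 0.63, 0.76, 0.94 and 0.26 at the 4 stages, against -0.02 to 0.01 over all genes. Of 25 other forkhead genes tested, 4 were higher and 3 lower in wildtype PA2 at E9.0, where 18.7% of all genes passed. At E9.5 5 were higher and 1 lower (26.3% of all genes), and at E10.0 1 higher and 1 lower (5.94%). At E10.5 1 was higher and 0 lower (1.52%).

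By likeness over the 16 group means, among 11341 genes, the nearest to Foxc1 was Kitl (r 0.880), to Foxc2 Mzt1 (0.898), to Foxd1 Arhgap18 (0.975) and to Foxd2 Apbb2 (0.920). The nearest to Foxf1 was Perp (0.984), to Foxf2 Tfap2c (0.979), to Foxe1 Rapgef4 (0.943), to Foxl2 Bend7 (0.953) and to Foxi3 Gna14 (0.991). Next in likeness came Mios and Galc for Foxc1, Tmub2 and Hes6 for Foxc2, Kyat3 and Tex9 for Foxd1, Ap3d1 and Smarca4 for Foxd2, and Nell2 and Pltp for Foxf1. For Foxf2 these were Fendrr and Pkp3, for Foxe1 Sfta3-ps and Rasgrp1, for Foxl2 Espn and Abcc4, and for Foxi3 Galnt3 and Loxl2.

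The last comparison set the label Hoxa2-/- against wildtype within an arch and stage. Outside E10.0 it cannot separate the genotype from the library division. By limma 0 of 9 forkhead genes passed in any of the 8 comparisons, 72 tests in all, of which 2 had an unadjusted p under 0.05. In order of stage, the share of all genes called was 2.08%, 23.6%, 0% and 3.05% in PA1 and 14%, 4.48%, 0.0814% and 10.3% in PA2. edgeR's quasi-likelihood test also called 0 of the members.

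Both tests with an unadjusted p under 0.05 were at E10.5, where the label and the library division cannot be told apart. Foxc1 in PA1 read 14.1, 12.3 and 16.1 CPM in wildtype and 20.6, 20.1 and 19.0 with the label, without overlap (log2 difference 0.47, SE 0.21, adjusted p 0.24). Foxc2 in PA2 read 15.7, 17.5 and 19.4 CPM in wildtype and 18.5, 6.96 and 9.88 with the label (-0.63, SE 0.30, adjusted p 0.18). Without replicate 1, the high one of the labelled group, the Foxc2 difference was -0.99 and passed (adjusted p 0.047). At the same stage and arch the neighbours Foxl1 (-1.14, adjusted p 0.00023) and Fendrr (-0.83, 0.043) were lower with the label, and Foxf1 was at -0.63 (0.48).

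At E10.0, where both labels lie on 1 side of the division and each group has 5 libraries, the log2 differences ran from -0.15 to 0.48, and the lowest adjusted p was 0.79. The 95% interval for Foxc1 was -0.23 to 0.42 in PA1 and -0.22 to 0.43 in PA2, and for Foxl2 -0.23 to 0.39 and -0.37 to 0.26. It was wider for Foxf1, at -0.85 to 0.72 and -0.90 to 0.68, and for Foxd1, at -0.83 to 0.74 and -0.31 to 1.26. A p that misses the threshold does not show that the labels were alike.

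A direct test of the label effect in PA2 minus that in PA1 called 0 of 9 at each stage, where 0%, 0.0109%, 0.0163% and 0.038% of all genes passed in order of stage. None of these 36 limma tests of members had an unadjusted p under 0.05, edgeR called 0, and the lowest adjusted p was 0.9. The value farthest from 0 was that of Foxf1 at E10.5, -0.80 with a 95% interval of -2.24 to 0.64.

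**Figure D5:**
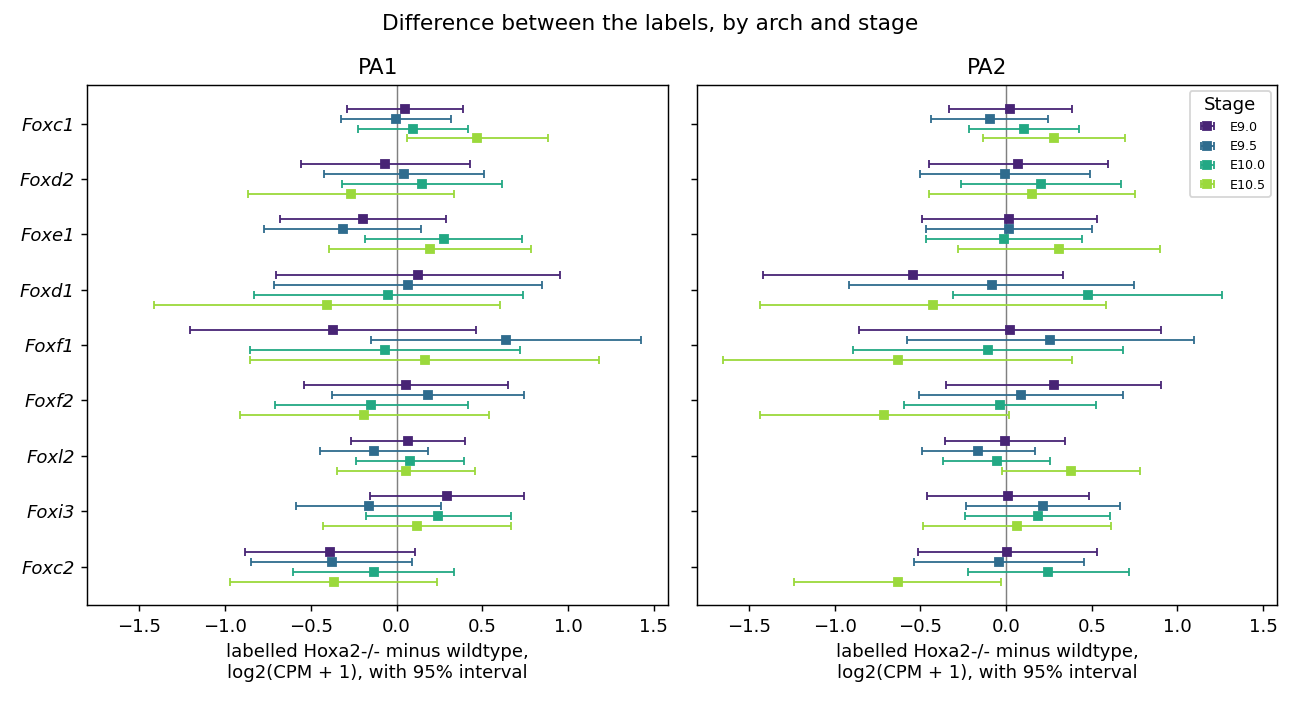
Label Hoxa2-/- minus wildtype in log2(CPM + 1), with the 95% interval, for each forkhead gene by arch and stage. No adjusted p was under 0.05. The interval bounds reach from -1.65 to 1.43 over all stages and from -0.90 to 1.26 at E10.0, and are widest for Foxd1 and Foxf1.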

How the data were processed

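Poly(A) RNA of hand-dissected arches was turned into cDNA and libraries with low-input kits, per the labels' protocols. The submitters' processing notes name mm10, bcl2fastq 2.18, TopHat2 2.1.1 and R 3.3.2, with no role given, and the counting program, annotation and strandedness are not given in the sources used here. The authors deposited a table of CPM values, treated as a signal because its column totals ran from 926298 to 1051959. Though plain CPM had been planned for, the planned tests fitted this unit unchanged. All values (100%) were whole reads within 0.01 reads, 8912251 to 20619153 per library.

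Genes with at least 1 CPM in at least 3 libraries were kept, 18428 in all. limma 3.58.1 (R 4.3.3, trended prior variance, two-sided) was fitted to log2(CPM + 1) with 1 mean per group over 68 libraries, with Benjamini-Hochberg adjustment over all kept genes and a threshold of 0.05. Adjusted p-values without other mention are from this fit. Gene positions and symbols came from GENCODE M21 (GRCm38), matched by identifier. Likeness took the 3 genes of highest Pearson r with a member over the group means of log2(CPM + 1), among genes with at least 5 CPM in a group and a symbol that is neither a Gm number nor ends in Rik. Genes of the lists are named where they passed a test described or lie beside a member. The members and lists were chosen with earlier results of these data known. Wildtype E10.0 enters no stage comparison.

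Per the series text, PA1 and PA2 came from the same embryo. Deviations of same-numbered libraries from their group means had a median correlation of 0.35 over 33 pairs, 30 of them over 0.1, against -0.12 over 116 other pairs, so the number was taken as the embryo. Among 116 replicate pairs the lowest chi-square per degree of freedom was 5.84, so no library was counted as a copy. Alternatives were the embryo as a block, fits to the compared groups alone, size factors by median of ratios (DESeq2 1.42.0), no filter on low values or one of 5 CPM, other pseudocounts (0.25 and 5), a sex covariate, edgeR 4.0.16 on recovered reads, each replicate left out, and leaving out 9 libraries whose erythroid, heart muscle or yolk sac markers exceeded 5 times their group's median. The limma script was tested on simulated data.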

Additional observations from a re-analysis of the deposited data

Results flagged for a closer look

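In 8 of 108 gene-by-group sets of 4 or 5 libraries, 1 library stood apart from the others of its group by Dixon's criterion, which chance meets in about 1 of 20. Foxd1 in PA2 labelled Hoxa2-/- at E10.0 was at 12.5 CPM in replicate 2. Foxd2 was at 38.1 CPM in wildtype PA1 replicate 5 at E9.0, above the others, and at 8.96 CPM in wildtype PA1 replicate 3 at E10.0, below the others. Foxf1 was at 13.0 CPM in wildtype PA1 replicate 4 at E9.0 and at 18.8 CPM in wildtype PA2 replicate 5 at E9.5. The latter library was also apart in Foxf2, at 11.8 CPM, and Foxf2 was at 25 CPM in wildtype PA1 replicate 1 at E10.0. Foxi3 in PA2 labelled Hoxa2-/- at E9.5 was at 1.94 CPM in replicate 4, below the others, and this embryo had the highest Foxf1 of its group in both arches.

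The stage change differed between PA2 and PA1, by a limma test of the difference, for Foxc1 (1.79 in wildtype and 1.62 with the label Hoxa2-/-), Foxd2 (1.38 and 1.66) and Foxe1 (-1.31 and -1.42).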

How the results depend on the processing

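Of 63 calls of forkhead genes, 0 turned direction, 45 held without each replicate in turn, and 42 held under every alternative and left-out replicate. Calls that held numbered 63 with a pseudocount of 0.25, 61 with 5, 62 with no filter, 63 with a filter of 5 CPM, 62 with median-of-ratios scaling, 62 with the sex covariate, 60 by edgeR, 56 without the 9 marker-rich libraries and 53 with only the compared groups. With the embryo as a replicate block all 63 held, and arch calls rose from 16 to 19 in wildtype and from 16 to 22 with the label, stage calls in labelled PA2 from 5 to 6, with the gained genes named in the text and no call lost. Leaving out each replicate in turn, label calls in PA2 ran from 0 to 1, stage calls in labelled PA2 from 4 to 8 (8 without PA2 replicate 2 of E9.0), and calls of a changed arch difference in wildtype from 1 to 3. With only the compared groups, the last count with the label was 1 against 3. A left-out replicate of E10.5 leaves 2 libraries in its group. Under alternatives other than the block, stage calls reached 8 in PA1 of each label, from 7, and 7 in wildtype PA2, from 6. Low reads limit Foxd1 and Foxi3.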
